A study of Homo sapiens with 9 samples.

Results

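TNFRSF6B, the gene of the secreted decoy receptor 3, is examined together with 9 other TNF receptor superfamily genes in HCT116, an established cell line from a human colon carcinoma. The 10 genes were listed by name, were matched by Ensembl identifier to 1 gene each, and are 10 of the 58395 genes in the RNA-seq tables. The list was chosen by a rule that used measured values, namely earlier fold changes from these libraries, with TNFRSF6B selected on its difference between the STBD1 constructs, so their values are given as a description without p-values. Where a member is later said to pass the test or to be called, this is a description as well and lends no support. All 9 libraries came from cells in which STBD1, a glycogen-binding protein proposed as an adaptor for glycogen autophagy, was knocked down by a short hairpin RNA (shSTBD1). The 3 groups of 3 libraries carried the empty vector (plvx neo), hairpin-resistant STBD1 WT, or hairpin-resistant STBD1 W203C, in which the tryptophan that opens the ATG8-binding motif is replaced by cysteine. Each construct was introduced by lentivirus and kept by drug selection, and the sources used here describe 1 stable line per construct, so differences between lines and effects of the constructs cannot be told apart.

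Groups follow the sample labels. The names of the deposited tables, and a per-library table supplied with the study, give STBD1 WT and STBD1 W203C the other way round, so every direction below holds for the libraries as labelled. With the labels exchanged, each direction from one construct to the other would reverse, and what is said of either construct against plvx neo would belong to the other. STBD1 separated both constructs from plvx neo, with log2 fold changes of 1.73 and 1.45 (edgeR quasi-likelihood F-test, adjusted p = 1.68e-11 and 1.27e-09). It was lower in STBD1 W203C than in STBD1 WT, with a log2 fold change of -0.28 (adjusted p = 0.00945), a difference in level that does not show which construct a library carries. FAM47E-STBD1, which overlaps STBD1 on the same strand, had larger values of 4.06 and 3.78 against plvx neo, and -0.27 between the constructs. Its adjusted p were 1.41e-14, 2.64e-15 and 0.00113 (edgeR quasi-likelihood F-test), so STBD1 alone does not give the level of the construct. A gene passed the test, or was called, where its Benjamini-Hochberg adjusted p over all genes tested was below 0.05. Total expected counts were 16.9 to 23.3 M per library (M, mega). Of 8 markers of colon epithelium, 6 averaged 1 TPM or more (TPM, transcripts scaled by length to a fixed total per library), VIL1 reached at most 0.08 TPM and CDX1 was listed at 0 throughout. The summed markers reached 3798 to 3898 TPM in plvx neo, 3393 to 3528 in STBD1 WT and 3177 to 3437 in STBD1 W203C, whereas 5 leukocyte markers summed to at most 2.79 TPM in any library. A list of 5 stromal markers summed to 13.8 to 16.5, 16.4 to 21.6 and 12.6 to 18.2 TPM, nearly all of it COL1A1, a collagen gene, while PECAM1, CDH5, COL1A2 and DCN each stayed at or below 0.09 TPM. In such bulk RNA, fewer cells that express a gene and less RNA per cell cannot be told apart.

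Receptors of this superfamily bind trimeric ligands of the TNF family through cysteine-rich extracellular domains. Death receptors such as FAS and the TRAIL receptors carry a cytoplasmic death domain that recruits FADD or TRADD and leads to caspase activation or to NF-kB signalling. Decoy receptors bind the same ligands without a working death domain, and the product of TNFRSF6B has no membrane anchor and captures FASLG, TNFSF14 and TNFSF15 outside the cell. A further group, including LTBR and TNFRSF12A, binds TRAF proteins and can release the kinase encoded by MAP3K14 from degradation, which starts the noncanonical NF-kB pathway through NFKB2 and RELB. TNFRSF6B is known for its high level in many gastrointestinal tumors.

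TNFRSF6B (ENSG00000243509) lies on the plus strand at chr20:63696652-63698684 (hg38) and has 3 exons in 1 annotated transcript. Its coding sequence starts in exon 1, at position 63696768, and ends in exon 3, at position 63698560. TNFRSF9 (ENSG00000049249), the other member with a large difference, lies on the minus strand at chr1:7915871-7943165. Promoter windows of RefSeq (GRCh38.p14), which run from 250 bases before to 50 bases after a start site, were found for 6 of the 10 members, with 3 windows for FAS. TNFRSF10A, TNFRSF10B, TNFRSF10D and TNFRSF12A had no entry. The 250 bases before the start site are shown for TNFRSF6B and TNFRSF9, which had the largest differences, and for the FAS start site that holds the other kB match among the members. Capitals mark matches to the kB consensus, the NF-kB binding motif, and to the AP-1 motif TGANTCA.
TNFRSF6B, chr20:63696402-63696651, plus strand: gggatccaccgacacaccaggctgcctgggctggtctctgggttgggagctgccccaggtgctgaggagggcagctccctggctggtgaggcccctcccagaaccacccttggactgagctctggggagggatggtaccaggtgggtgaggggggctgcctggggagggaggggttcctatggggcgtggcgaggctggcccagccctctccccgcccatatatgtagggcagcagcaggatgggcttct
TNFRSF9, chr1:7940840-7941089, minus strand: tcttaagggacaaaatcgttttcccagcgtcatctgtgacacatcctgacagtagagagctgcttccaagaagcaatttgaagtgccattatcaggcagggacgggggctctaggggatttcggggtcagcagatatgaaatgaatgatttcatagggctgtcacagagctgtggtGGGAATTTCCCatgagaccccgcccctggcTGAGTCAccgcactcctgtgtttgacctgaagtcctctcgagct
FAS, chr10:88991181-88991430, plus strand: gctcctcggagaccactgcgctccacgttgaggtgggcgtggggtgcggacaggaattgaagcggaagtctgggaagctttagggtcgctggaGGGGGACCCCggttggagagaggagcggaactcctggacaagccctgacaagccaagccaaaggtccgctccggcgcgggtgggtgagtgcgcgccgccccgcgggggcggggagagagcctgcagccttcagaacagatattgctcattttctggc

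Both strands of each window were searched for the kB consensus, TGANTCA and TATANA. The TNFRSF6B window matched none of the 3, and 68% of the 250 bases shown are G or C. The TNFRSF9 window held 1 kB site that reads on both strands and starts at position -74 from the start site, followed by an AP-1 match at -44 that also reads on both strands. In FAS the kB match starts at -157. Over the 8 windows of members, 2 held a kB match, 2 held TGANTCA and 0 held TATANA, whereas the shares over all 35116 RefSeq windows were 11.3%, 7.71% and 19%. A match describes letters in the window and not the binding of a factor, and the absence of a match says only that these letters are not there. The window of TNFRSF6B lies within the read-through gene RTEL1-TNFRSF6B, and the RefSeq start of TNFRSF9 lies inside the Ensembl gene, whose outermost start is further upstream.

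TNFRSF6B was highest in the libraries labelled STBD1 WT. Its level was 37.6, 39.0 and 38.2 TPM in plvx neo replicates 1 to 3. It was 98.1, 91.8 and 93.8 TPM in STBD1 WT. It was 34.1, 31.6 and 26.3 TPM in STBD1 W203C. No pair of groups overlapped, every STBD1 WT library was above every other library, and the STBD1 W203C libraries were the lowest and the most spread. The means were 38.3 ± 0.692, 94.6 ± 3.23 and 30.7 ± 3.99 TPM (SD, n = 3). The fitted log2 fold change was 1.29 (SE 0.0523) in STBD1 WT against plvx neo. It was -1.65 (SE 0.0678) in STBD1 W203C against STBD1 WT and -0.37 (SE 0.0784) in STBD1 W203C against plvx neo. The last of these was the small one, and it ranged from -0.46 to -0.27 when each library was left out in turn. These comparisons share libraries pairwise, so they are not independent of each other.

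**Figure D1:**
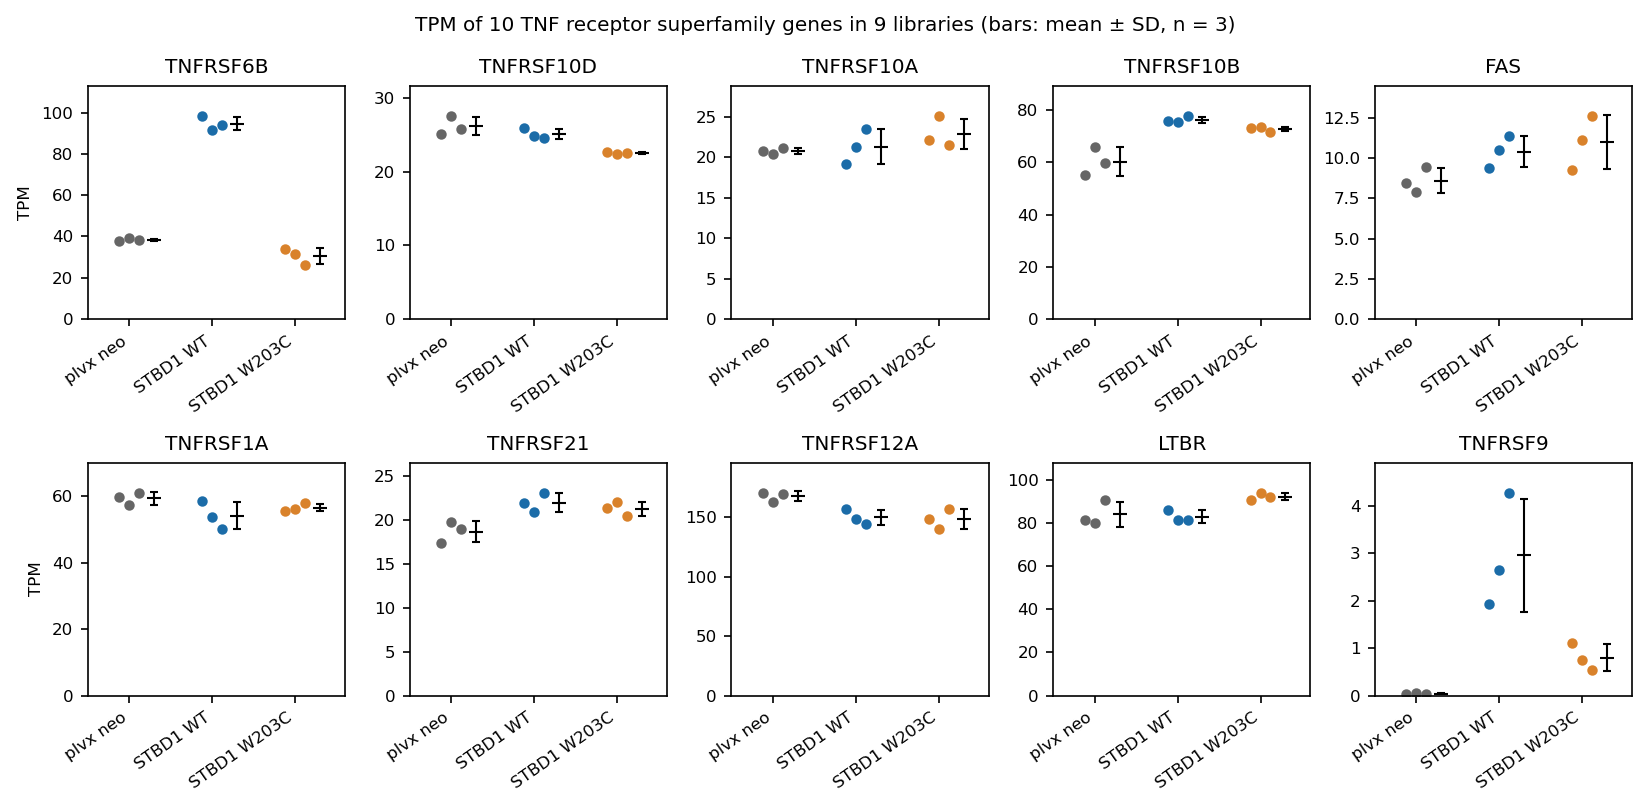
TPM of the 10 receptor genes (y axis, linear, from 0, with its own scale per gene) in the plvx neo, STBD1 WT and STBD1 W203C libraries (x axis), with a point per library in the order of replicates and the mean ± SD (n = 3) beside it. TNFRSF6B stands at 91.8 to 98.1 TPM in STBD1 WT and at most 39.0 TPM elsewhere, TNFRSF9 leaves the floor only with a construct, and the other 8 genes move little.

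The share of TNFRSF6B in the family moved with its level. It made up 7.73% to 8.12% of the summed TPM of the 10 genes in plvx neo, 17.3% to 17.7% in STBD1 WT and 5.45% to 7.14% in STBD1 W203C. The 5 members with a death domain that can signal (TNFRSF10A, TNFRSF10B, FAS, TNFRSF1A and TNFRSF21) summed to 168 ± 5.31, 184 ± 2.07 and 184 ± 3.24 TPM (SD, n = 3), a much smaller difference. The ratio of TNFRSF6B to this sum was 0.225 to 0.233 in plvx neo, 0.505 to 0.532 in STBD1 WT and 0.143 to 0.188 in STBD1 W203C. Against FAS alone, the receptor whose ligand the decoy captures, the ratio was 4.06 to 4.94, 8.27 to 10.4 and 2.09 to 3.69, and the 3 ranges did not overlap.

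The level of TNFRSF6B depends on how reads are divided with RTEL1-TNFRSF6B (ENSG00000026036, chr20:63659300-63698684, plus strand), a read-through transcript that joins exons of the helicase gene RTEL1 to those of TNFRSF6B. Expected counts of TNFRSF6B were not whole numbers in any library, since RSEM divided read pairs between both genes. RTEL1-TNFRSF6B was at 7.47, 7.69 and 8.76 TPM in plvx neo, 7.98, 7.05 and 7.70 in STBD1 WT and 8.88, 7.99 and 8.07 in STBD1 W203C. RTEL1, which ends before TNFRSF6B starts, had 19.2 to 24.0, 19.7 to 21.3 and 22.1 to 25.2 TPM. In TPM both genes were higher in STBD1 W203C than in STBD1 WT without overlap, opposite in direction to TNFRSF6B. The read-through gene did so only narrowly, and 33.1% of all genes tested did not overlap there. Neither gene passed the test in any comparison (edgeR quasi-likelihood F-test, adjusted p = 0.462, 0.261 and 0.890 for RTEL1-TNFRSF6B and 0.826, 0.930 and 0.966 for RTEL1, in the order STBD1 WT against plvx neo, STBD1 W203C against STBD1 WT and STBD1 W203C against plvx neo). TNFRSF6B took 41.9% to 45.5% of the expected counts of itself and the read-through gene in plvx neo, 66.3% to 68.0% in STBD1 WT and 34.8% to 39.3% in STBD1 W203C. With the counts of both genes summed, the log2 fold changes kept their signs and were 0.69, -0.82 and -0.13, with SEs of 0.0455, 0.0517 and 0.0551. The sum also holds the RTEL1 exons of the read-through gene. Its difference between STBD1 W203C and plvx neo was no longer called, which describes the value and is no test of it.

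Among the genes around TNFRSF6B, 9 were listed and tested, and 2, 2 and 1 of them passed in the same order of comparisons, against 27.8%, 27.9% and 5.70% of all genes tested. ARFRP1, which encodes a GTPase of the Golgi and overlaps the last exon of TNFRSF6B on the opposite strand, rose by 0.28 (SE 0.0701) in STBD1 WT against plvx neo and fell by 0.39 (SE 0.0788) in STBD1 W203C against STBD1 WT. Its adjusted p were 0.00512 and 0.000722 (edgeR quasi-likelihood F-test), and its TPM overlapped between all groups, with 17.7 to 21.1, 20.04 to 24.4 and 16.7 to 21.1. No source used here states whether read strand entered the counting. The overlap runs only from 63698642 to 63698684. The expected counts of ARFRP1 were whole numbers in every library, so RSEM split no read pair between ARFRP1 and another gene. Whether pairs from the overlap were assigned whole to either gene was not tested. HELZ2, an interferon-responsive helicase gene that does not overlap TNFRSF6B, rose by 0.62 (SE 0.0531) in STBD1 WT against plvx neo, fell by 0.35 (SE 0.0520) in STBD1 W203C against STBD1 WT and rose by 0.26 (SE 0.0508) in STBD1 W203C against plvx neo (edgeR quasi-likelihood F-test, adjusted p = 3.54e-08, 2.93e-05 and 0.00183). The other 7 genes did not pass in any comparison: RTEL1, RTEL1-TNFRSF6B, ZGPAT, SLC2A4RG, LIME1, STMN3 and GMEB2 had log2 fold changes between -0.13 and 0.17.

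**Figure D2:**
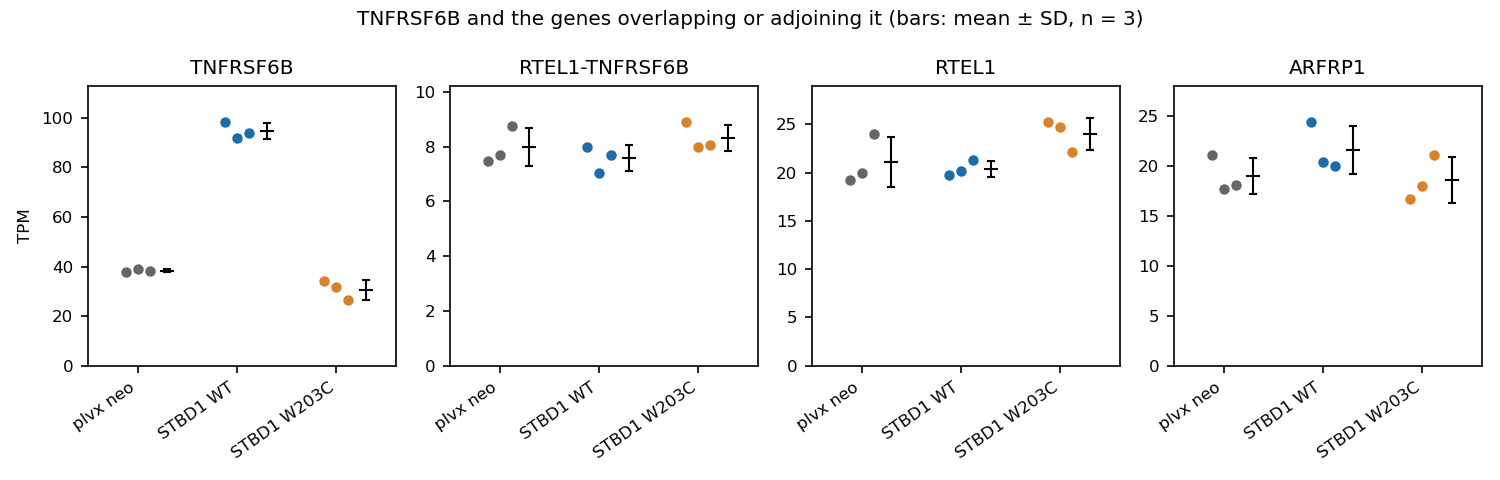
TPM (y axis, linear, from 0, with its own scale per gene) of TNFRSF6B, the read-through gene RTEL1-TNFRSF6B, RTEL1 and ARFRP1 in the 3 groups (x axis), with a point per library and the mean ± SD (n = 3). TNFRSF6B separates all 3 groups. The read-through gene stays between 7.05 and 8.88 TPM in all 9 libraries, with STBD1 WT narrowly below STBD1 W203C.

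TNFRSF10D, the membrane-bound decoy for TRAIL with a truncated death domain, was lowest in the libraries labelled STBD1 W203C. It was at 25.1, 27.5 and 25.8 TPM with plvx neo, at 25.9, 24.8 and 24.6 with STBD1 WT and at 22.6, 22.4 and 22.5 with STBD1 W203C. The STBD1 W203C libraries lay below all others, and plvx neo and STBD1 WT overlapped. The log2 fold changes were -0.053 (SE 0.0464) in STBD1 WT against plvx neo, -0.19 (SE 0.0453) in STBD1 W203C against STBD1 WT and -0.25 (SE 0.0475) in STBD1 W203C against plvx neo. TNFRSF6B and TNFRSF10D were thus both lower in STBD1 W203C than in plvx neo, and TNFRSF10D had no counterpart of the high level of TNFRSF6B in STBD1 WT. TNFRSF10C, a further decoy for TRAIL and no member of the 10, overlapped between STBD1 W203C and plvx neo, at 2.53, 2.80 and 1.86 TPM with plvx neo, at 3.74, 3.05 and 2.82 with STBD1 WT and at 2.77, 2.2 and 2.43 with STBD1 W203C. Its log2 fold changes of 0.44, -0.25 and 0.18 did not pass the test (edgeR quasi-likelihood F-test, adjusted p = 0.0940, 0.341 and 0.705), and its expected counts of 46.6 to 91.1 were not whole in any library.

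TNFRSF10B (DR5), the death receptor for TRAIL with the highest level among the TRAIL receptors here, was higher with both constructs. It was at 55.3, 66.0 and 59.6 TPM with plvx neo, at 75.7, 75.3 and 77.6 with STBD1 WT and at 73.0, 73.4 and 71.7 with STBD1 W203C. No groups overlapped. Its log2 fold changes were 0.34, -0.13 and 0.21, with SEs of 0.0374, 0.0359 and 0.0382, in the order of comparisons used above. TNFRSF10A (DR4), the other signalling TRAIL receptor, was at 20.8, 20.4 and 21.1 TPM with plvx neo, at 19.1, 21.2 and 23.5 with STBD1 WT and at 22.1, 25.0 and 21.5 with STBD1 W203C. STBD1 WT overlapped both other groups, and the values of TNFRSF10A were 0.085, 0.067 and 0.15, with SEs of 0.0604, 0.0558 and 0.0604. It was the only member called in no comparison. The TRAIL receptor genes lie side by side on chromosome 8 and resemble each other, and read pairs can be divided between them. The expected counts of TNFRSF10B and TNFRSF10D were whole numbers in every library. Those of TNFRSF10A were not whole in 3 of the 9 libraries, so its values are less certain. The gene that shared these pairs is not given, and FAS and LTBR also had counts that were not whole.

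FAS, the receptor of FASLG, was low for this family and varied within groups. Its level was 8.46, 7.90 and 9.43 TPM with plvx neo, 9.40, 10.48 and 11.3 TPM with STBD1 WT and 9.25, 11.2 and 12.6 TPM with STBD1 W203C, with overlap between all groups. The log2 fold changes on counts were 0.23, 0.19 and 0.41, with SEs of 0.0880, 0.0895 and 0.0906. FAS overlaps STAMBPL1 on its strand and ACTA2 on the other, and its abundance-weighted transcript length moved from 1931 to 2268 bases between libraries, so its TPM and counts need not move alike.

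TNFRSF1A, the main receptor of TNF, was at 59.7, 57.3 and 61.0 TPM with plvx neo, at 58.4, 53.8 and 50.2 with STBD1 WT and at 55.7, 56.2 and 57.8 with STBD1 W203C. The groups overlapped in each comparison, and the log2 fold changes were -0.16, 0.054 and -0.11, with SEs of 0.0459, 0.0440 and 0.0449. TNFRSF21 (DR6), a death receptor best known from neurons, was at 17.3, 19.7 and 18.9 TPM with plvx neo, at 21.9, 20.8 and 23.0 with STBD1 WT and at 21.4, 22.0 and 20.4 with STBD1 W203C. Both constructs lay above plvx neo and overlapped each other, at log2 fold changes of 0.24, -0.080 and 0.15, with SEs of 0.0513, 0.0482 and 0.0513. Among the 5 death receptors, then, 4 had positive values and TNFRSF1A a negative one in both comparisons with plvx neo, and none differed by more than 0.41 on the log2 scale.

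TNFRSF9 (4-1BB), a costimulatory receptor best known from activated T cells, was near the floor without a construct. It had 2, 5 and 1 expected counts in plvx neo, 154, 225 and 180 in STBD1 WT and 77, 52 and 53 in STBD1 W203C. No groups overlapped. In TPM this was 0.03, 0.05 and 0.03, then 1.94, 2.65 and 4.27, then 1.10, 0.75 and 0.55. In both construct groups the TPM of TNFRSF9 varied more than its counts relative to the mean, and its abundance-weighted transcript length ran from 2824 to 5118 bases in STBD1 WT. In plvx neo, with these few counts, the counts varied more. Summed over a group and scaled to depth, STBD1 WT held 72.2 times the counts of plvx neo (559 against 8 counts, exact 95% interval 36.4 to 168.1). The ratio was 0.344 (0.289 to 0.407) for STBD1 W203C against STBD1 WT and 24.8 (12.3 to 58.4) for STBD1 W203C against plvx neo. These intervals cover counting error only. The fitted log2 fold changes were 6.09, -1.52 and 4.56, with SEs of 0.280, 0.151 and 0.413, and the values against plvx neo depend on the prior count. Over the alternatives the value of TNFRSF9 ran from 1.89 to 6.84 in STBD1 WT against plvx neo and from 0.78 to 5.31 in STBD1 W203C against plvx neo, with the lowest from limma-trend on log2(TPM + 1), a scale that shrinks changes of low genes, and the highest without plvx neo replicate 2. Unlike TNFRSF6B, TNFRSF9 was above plvx neo with both constructs. The summed leukocyte markers were 0.64 to 0.84 TPM in plvx neo, 0.52 to 2.2 in STBD1 WT and 1.38 to 2.79 in STBD1 W203C, CD3E was at 0 in 8 of the 9 libraries, and the part of such cells in the counts of TNFRSF9 was not tested.

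TNFRSF12A (Fn14), the receptor of TWEAK, was the most abundant member in every group. It was at 170.4, 163 and 169.6 TPM with plvx neo, at 157, 149 and 144 with STBD1 WT and at 148, 140.0 and 157 with STBD1 W203C. Both constructs lay below plvx neo and overlapped each other, and the log2 fold changes were -0.17, -0.044 and -0.22, with SEs of 0.0459, 0.0480 and 0.0472. LTBR, the lymphotoxin beta receptor, was at 81.2, 79.9 and 90.7 TPM with plvx neo, at 86.3, 81.2 and 81.4 with STBD1 WT and at 90.8, 94.0 and 92.1 with STBD1 W203C. The STBD1 W203C libraries were the highest, narrowly above plvx neo replicate 3, and the values of LTBR were 0.060, 0.12 and 0.18, with SEs of 0.0413, 0.0391 and 0.0409. TNFRSF12A overlaps CLDN6 and LTBR overlaps SCNN1A on the opposite strand, and whether counting used strand is not given in the sources used here.

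Placed in order of mean TPM, a measure that accounts for length, TNFRSF12A came first and FAS and TNFRSF9 last in all 3 groups. TNFRSF6B ranked 5 of 10 in plvx neo, between TNFRSF1A and TNFRSF10D, 2 of 10 in STBD1 WT, between TNFRSF12A and LTBR, and 5 of 10 in STBD1 W203C, between TNFRSF1A and TNFRSF10A. Its range overlapped that of neither neighbour in any group. The neighbours whose ranges overlapped were TNFRSF10B and TNFRSF1A in plvx neo, TNFRSF21 and TNFRSF10A in STBD1 WT, and TNFRSF10A and TNFRSF10D in STBD1 W203C. The 10 genes together summed to 484 ± 9.68, 539 ± 12.2 and 479 ± 3.15 TPM (SD, n = 3).

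Of the 10 members, 6 were called in STBD1 WT against plvx neo (4 higher, 2 lower), where 27.8% of the 15289 genes tested were called (13.9% higher, 13.9% lower). In STBD1 W203C against STBD1 WT 5 were called (1 higher, 4 lower), against 27.9% of 15052 genes (14.5% higher, 13.4% lower). In STBD1 W203C against plvx neo 7 were called (4 higher, 3 lower), against 5.70% of 15081 genes (3.03% higher, 2.67% lower). The TPM of the groups did not overlap for 5, 5 and 8 members, against 31.3%, 33.1% and 20.2% of the genes tested. Members called in STBD1 WT against plvx neo were TNFRSF6B, TNFRSF9, TNFRSF10B and TNFRSF21 above and TNFRSF12A and TNFRSF1A below. Between the constructs they were LTBR above and TNFRSF6B, TNFRSF9, TNFRSF10B and TNFRSF10D below. Against plvx neo, STBD1 W203C had FAS, LTBR, TNFRSF10B and TNFRSF9 above and TNFRSF6B, TNFRSF10D and TNFRSF12A below. The median log2 fold change of the members was 0.16, -0.062 and 0.15, and that of all genes tested 0.0061, -0.0078 and -0.0031. Since the members were chosen with these comparisons known, nothing is read from the counts. Several calls rested on single libraries. Without STBD1 WT replicate 3 the call of TNFRSF12A in STBD1 WT against plvx neo was lost (edgeR quasi-likelihood, log2 fold change from -0.21 to -0.14 over the alternatives), and the TNFRSF1A call was lost without plvx neo replicate 1 or 3 and without STBD1 WT replicate 2 or 3. The call of TNFRSF12A in STBD1 W203C against plvx neo was lost without STBD1 W203C replicate 2. With limma-trend on log2(TPM + 1), 6 of the 7 calls of STBD1 W203C against plvx neo were lost, that of TNFRSF6B among them (log2 fold change -0.32), and TNFRSF9 alone was still called.

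**Figure D3:**
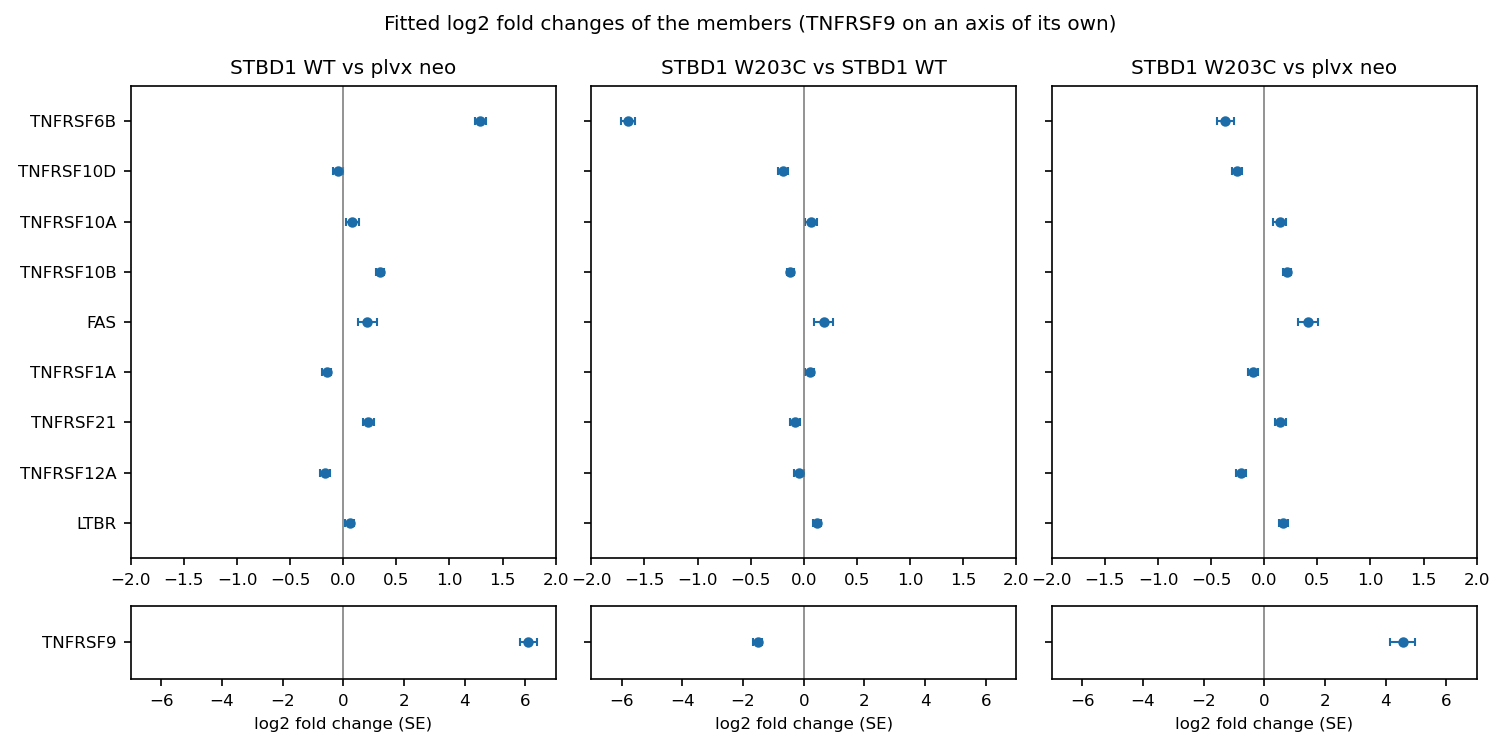
Fitted log2 fold changes (x axis) of the members (y axis) in the 3 comparisons, with bars of 1 SE. TNFRSF9 has an axis of its own below. TNFRSF6B lies at 1.29, -1.65 and -0.37, and the other 8 genes of the upper panels lie between -0.25 and 0.41.

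The remaining receptors of the superfamily were mostly low. Of 19 other receptor genes listed, 10 had enough counts to be tested and 7 had a mean of at least 1 TPM. TNFRSF25 (DR3), the signalling receptor of TNFSF15 and thus of a ligand that TNFRSF6B captures, rose by 0.43 (SE 0.0666) in STBD1 WT against plvx neo and fell by 0.35 (SE 0.0662) in STBD1 W203C against STBD1 WT. It was at 19.0, 17.3 and 21.6 TPM with plvx neo, at 26.5, 27.1 and 28.6 with STBD1 WT and at 21.6, 23.6 and 22.3 with STBD1 W203C, so the STBD1 WT libraries lay above all others. TNFRSF18 (GITR), a costimulatory receptor, rose by 0.36 (SE 0.0747) and fell by 0.33 (SE 0.0736) in the same comparisons, with 27.6 to 35.4, 38.7 to 45.6 and 31.4 to 36.6 TPM. The adjusted p were 6.21e-05 and 0.000475 for TNFRSF25 and 0.00123 and 0.00198 for TNFRSF18 (edgeR quasi-likelihood F-test). TNFRSF25 and TNFRSF18 were the 2 of 10 that passed in each of these comparisons, against 27.8% and 27.9% of all genes tested. In STBD1 W203C against plvx neo 0 of the 10 passed by edgeR quasi-likelihood, against 5.70% of all genes tested. There 1 had an unadjusted p below 0.05, and TNFRSF25 was at 0.082 (SE 0.0720). CD40, the receptor of CD40LG on antigen-presenting and epithelial cells, had 14.6 to 18.2 TPM over all libraries and did not pass in any comparison. TNFRSF14, the signalling receptor of TNFSF14, reached at most 0.23 TPM.

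Few ligands were expressed. Of 18 ligand genes listed, 3 had a mean of at least 1 TPM, namely TNFSF9, TNFSF12 and EDA. Of the ligands of TNFRSF6B, FASLG was listed at 0 in every library, TNFSF14 reached at most 0.01 TPM and TNFSF15 at most 0.02 TPM. TNF and TNFSF10 (TRAIL) reached at most 0.07 and 0.05 TPM. LTA and LTB, which form the ligand of LTBR, stayed at or below 0.38 TPM. TNFSF9, the ligand of TNFRSF9, was at 40.1, 40.5 and 41.4 TPM with plvx neo, at 42.0, 42.2 and 41.2 with STBD1 WT and at 44.3, 42.7 and 46.5 with STBD1 W203C. Its log2 fold changes were 0.038, 0.058 and 0.091, and none passed the test (edgeR quasi-likelihood F-test, adjusted p = 0.617, 0.446 and 0.379). TNFSF12 (TWEAK), the ligand of TNFRSF12A, had 9.54 to 12.2 TPM and did not pass either. EDA, which signals in skin appendages, fell by 0.44 (SE 0.128) in STBD1 W203C against STBD1 WT (edgeR quasi-likelihood F-test, adjusted p = 0.0124). It was the only 1 of the 5 ligands tested there that passed, where 27.9% of all genes tested were called, and its TPM overlapped between the groups. In the comparisons with plvx neo 0 of 4 ligands passed by edgeR quasi-likelihood, with 0 at an unadjusted p below 0.05 for STBD1 WT and 1 for STBD1 W203C. The shares of all genes tested that were called there were 27.8% and 5.70%.

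Genes of the proteins that carry the death receptor signal into the cell were called near the background in the first 2 comparisons. They were 5 of 15 and 4 of 15 tested, against 27.8% and 27.9% of all genes tested. Of 16 adaptor, caspase and ubiquitin-editing genes listed, 15 were tested, and 5 rose and 0 fell in STBD1 WT against plvx neo, where 13.9% of all genes tested rose and 13.9% fell. The 3 largest were CASP10, an initiator caspase, with 0.58 (SE 0.172), CYLD, a deubiquitinase that limits NF-kB signalling, with 0.55 (SE 0.0736), and TRADD, the adaptor of TNFRSF1A and TNFRSF25, with 0.44 (SE 0.0777). Their adjusted p were 0.0152, 1.18e-05 and 0.000252 (edgeR quasi-likelihood F-test). CASP10 was low, at 0.78 to 1.36 TPM with plvx neo, 1.35 to 1.94 with STBD1 WT and 0.72 to 1.35 with STBD1 W203C. Its STBD1 WT libraries thus overlapped both other groups. TRADD was at 13.0, 13.1 and 12.0 TPM with plvx neo, at 19.2, 17.5 and 18.0 with STBD1 WT and at 14.4, 12.3 and 15.3 with STBD1 W203C. In STBD1 W203C against STBD1 WT 4 of the 15 fell and 0 rose, against 13.4% and 14.5% of all genes tested, among them CASP10 by 0.64, TRADD by 0.41 and CYLD by 0.21 (adjusted p = 0.00614, 0.00159 and 0.0398). In STBD1 W203C against plvx neo 2 of the 15 passed, against 5.70% of all genes tested. CYLD rose by 0.34 and RNF31, the catalytic subunit of the linear ubiquitin ligase, by 0.19 (edgeR quasi-likelihood F-test, adjusted p = 0.0109 and 0.0210). FADD, the adaptor of FAS and the TRAIL receptors, and CASP8, the caspase it recruits, did not pass in any comparison, and RIPK3 was listed at 0 in every library.

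The noncanonical NF-kB list, downstream of LTBR and TNFRSF12A, held the largest differences among the pathway lists. It was written with the rise of some of its genes known and is no independent evidence of a direction. All 10 genes were tested. In STBD1 WT against plvx neo 5 rose and 2 fell, in STBD1 W203C against STBD1 WT 2 rose and 4 fell, and in STBD1 W203C against plvx neo 4 rose and 1 fell. The shares of all genes tested that were called in these comparisons were 27.8%, 27.9% and 5.70%. BIRC3 (cIAP2), a ubiquitin ligase that keeps MAP3K14 low, was at 1.02, 0.98 and 1.12 TPM with plvx neo, at 10.6, 9.47 and 11.03 with STBD1 WT and at 4.11, 4.23 and 5.05 with STBD1 W203C. RELB, the partner of the processed NFKB2 protein, was at 5.48 to 6.75, 26.4 to 30.1 and 21.7 to 24.1 TPM. NFKB2, the precursor gene, was at 42.0 to 45.0, 103.7 to 116 and 77.2 to 82.4 TPM. In all 3 genes the STBD1 W203C libraries lay between the other groups without overlap.

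In STBD1 WT against plvx neo the log2 fold changes were 3.38 for BIRC3, 2.29 for RELB and 1.38 for NFKB2. In STBD1 W203C against STBD1 WT these genes fell by 1.33, 0.35 and 0.52, and in STBD1 W203C against plvx neo they rose by 2.05, 1.93 and 0.85. The 3 genes were named for their large changes on a list written with the rise of some genes known. Their adjusted p therefore describe the fit and lend no support. The largest of these 9 adjusted p was 0.000187 (edgeR quasi-likelihood F-test), for RELB between the constructs. TNFRSF6B thus stood apart from them in STBD1 W203C, where it was below plvx neo and the 3 genes were above. MAP3K14 itself (NIK), the kinase that the pathway turns on, did not pass in the first 2 comparisons and fell by 0.42 (SE 0.0859) in STBD1 W203C against plvx neo (edgeR quasi-likelihood F-test, adjusted p = 0.00298). CHUK, the kinase it activates, fell by 0.26 (SE 0.0438) in STBD1 WT against plvx neo and rose by 0.23 (SE 0.0501) in STBD1 W203C against STBD1 WT (adjusted p = 0.000188 and 0.00171). Over all 4 lists, 14 of 39, 13 of 40 and 7 of 39 tested genes passed, against 27.8%, 27.9% and 5.70% of all genes tested. With both directions pooled, the first 2 counts lie near the background. By direction, 12 rose and 2 fell in the first comparison, where 13.9% of all genes tested rose and 13.9% fell. In the second, 2 rose and 11 fell, against 14.5% and 13.4%. In the last, 6 rose and 1 fell, against 3.03% and 2.67%. The split by direction was not tested. Of the 7 that passed in the last comparison, 5 came from the noncanonical list, which was written with the rise of some genes known. The other receptors, ligands and adaptors gave 0 of 10, 0 of 4 and 2 of 15, so nothing is read from that count.

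**Figure D4:**
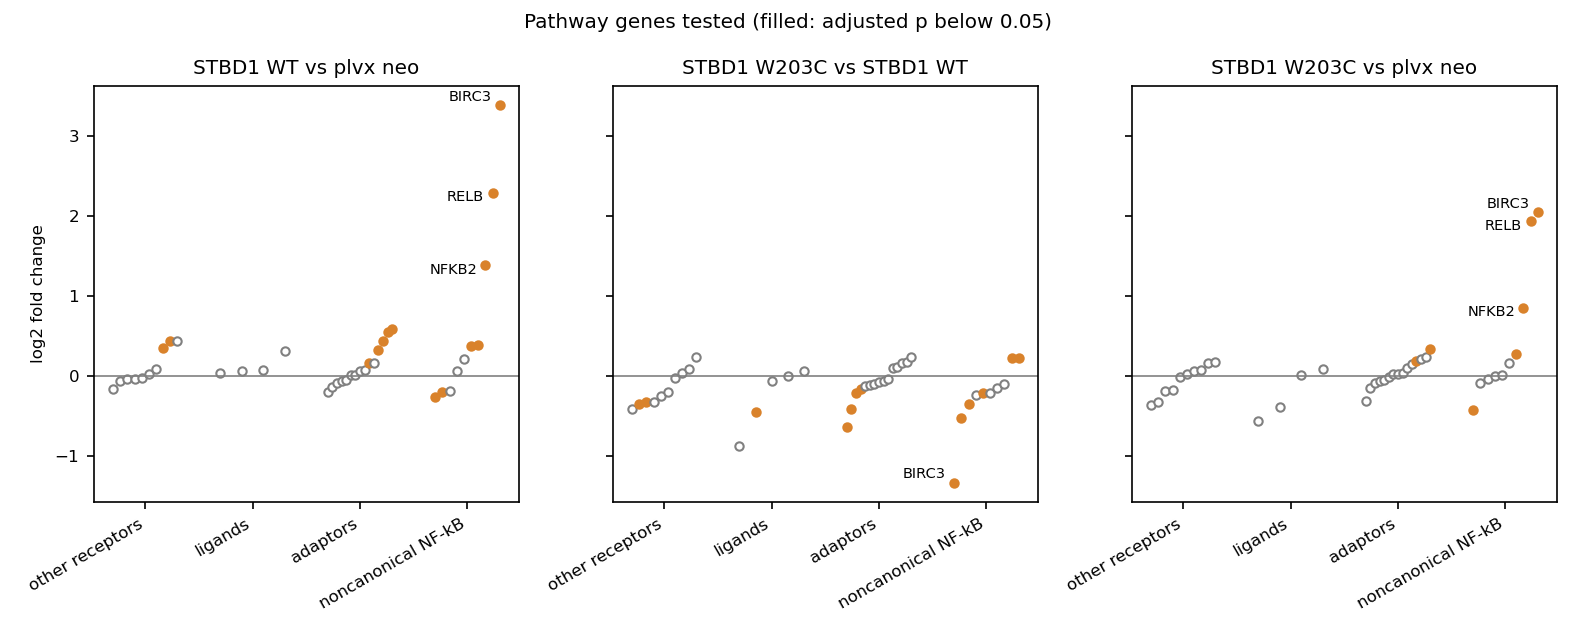
Log2 fold changes (y axis) of the tested genes of 4 pathway lists (x axis, genes ordered by value within a list) in the 3 comparisons. Filled points passed the edgeR quasi-likelihood test at a Benjamini-Hochberg adjusted p below 0.05, and those of them beyond 0.8 on either side are named, which are BIRC3, RELB and NFKB2 in both comparisons with plvx neo and BIRC3 between the constructs.

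Genes with the pattern most like that of TNFRSF6B were sought among the 11307 genes whose mean was 5 CPM (counts scaled to 1 M per library) or more. Likeness was the root-mean-square difference over the 9 libraries between log2 CPM profiles, each centred on its own mean. A gene without any variation would differ from TNFRSF6B by 0.717, the median gene differed by 0.729, and the closest 1% differed by less than 0.459. The 5 nearest genes were LINC03040 with 0.204, SYNPO with 0.222, HYAL1 with 0.242, ENSG00000252690 with 0.256 and PRF1 with 0.260. LINC03040, a long noncoding RNA, averaged 3.45 ± 0.723 TPM with plvx neo, 8.92 ± 0.347 with STBD1 WT and 3.30 ± 0.540 with STBD1 W203C (SD, n = 3). SYNPO, which encodes an actin-associated protein, was at 2.41 ± 0.293, 5.05 ± 0.115 and 2.30 ± 0.50 TPM. HYAL1, a lysosomal hyaluronidase gene, was at 2.69 ± 0.488, 5.22 ± 0.212 and 2.66 ± 0.622 TPM, and PRF1, the perforin gene, at 2.34 ± 0.200, 4.30 ± 0.376 and 2.23 ± 0.351 TPM. All 5 were low against TNFRSF6B, and their high level in STBD1 WT follows from how they were chosen. No other member of the family came near by this measure, which also counts the size of a change. TNFRSF10B, the closest, differed by 0.638 and TNFRSF9, also highest in STBD1 WT, by 2.01.

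**Figure D5:**
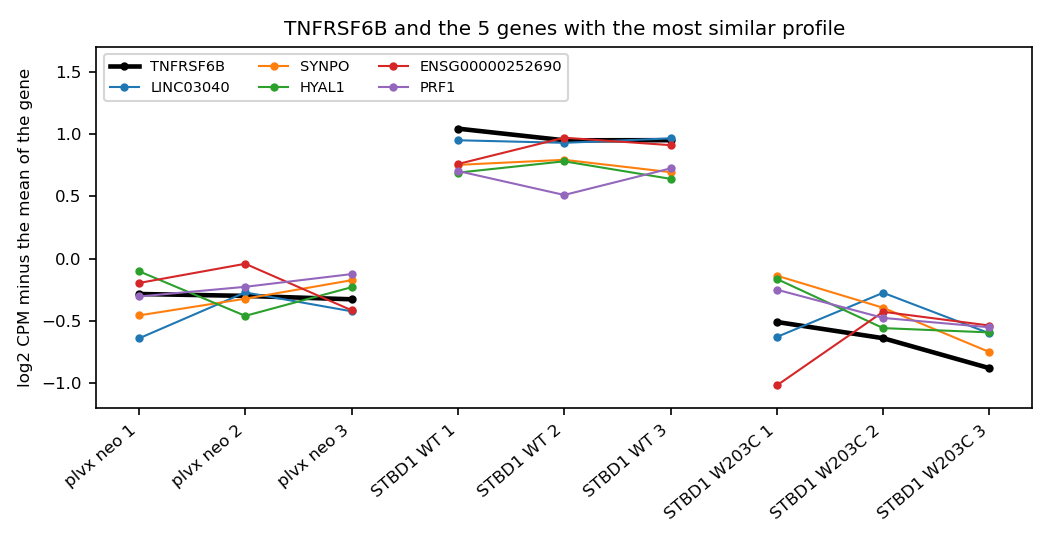
Log2 CPM of TNFRSF6B (black) and of the 5 genes with the most similar profile, each minus its own mean over the 9 libraries (y axis), by library (x axis). Lines join the replicates of a group, which have no order, and all 6 genes are above their mean in the 3 STBD1 WT libraries and below it in the other 6.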

How the data were processed

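RNA-seq was analysed in 9 libraries of shSTBD1 HCT116 cells, grouped by sample title into plvx neo, STBD1 WT and STBD1 W203C with 3 replicates each, which the study calls biological replicates. According to its methods the authors aligned reads to hg38 with STAR 2.7.1a, using Ensembl release 93 gene models, and quantified them with RSEM 1.3.1. The deposited values are RSEM expected counts per gene, with read pairs shared by several transcripts divided between them, and TPM, which the authors obtained from the same run after division by effective length. The deposited length is the abundance-weighted mean transcript length of a gene. Whether counting used strand is not given in the sources used here. Gene symbols of a supplied name table matched 57754 of 58395 identifiers.

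Expected counts were made whole by rounding. The 6 libraries of a comparison were filtered by filterByExpr, scaled by TMM and fitted with edgeR 4.0.16 in R 4.3.3 (glmQLFit, glmQLFTest, two-sided). The SE of a log2 fold change is its size over the root of F. The authors' methods name DESeq2, and DESeq2 1.42.0 was run as an alternative, beside RLE scaling, no low-count filter, all 9 libraries in 1 fit, limma 3.58.1 (limma-trend) on log2(TPM + 1), a replicate block, summed counts of TNFRSF6B and RTEL1-TNFRSF6B, and leaving out each library. Depth of 16.9 to 23.3 M counts sets the precision of low genes such as TNFRSF9. Ratios of its summed counts have exact 95% intervals. Replicates of a group differed by a chi-square of 2.12 to 3.87 for each gene holding 20 or more counts, where sampling noise gives about 1, so none was a copy.

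The members and lists were chosen with earlier results of these data known. Named were all members, STBD1, FAM47E-STBD1, genes at the TNFRSF6B locus, ligands of members and the 5 genes most like TNFRSF6B. From each pathway list and comparison, up to 3 called genes with the largest change and a mean of at least 1 TPM were named. TNFRSF10C, TNFRSF14, CD40, FADD, CASP8, RIPK3, MAP3K14 and CHUK were named for their role after their values were seen. Log2 CPM used a prior count of 2. The scripts were tested on simulated counts.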

Additional observations from a re-analysis of the deposited data

How the results depend on the processing

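All values here are counts of genes called or log2 fold changes under other choices, first for STBD1 WT against plvx neo, second for STBD1 W203C against STBD1 WT and last for STBD1 W203C against plvx neo. The largest shift came from limma-trend on log2(TPM + 1), which called 1751, 1828 and 131 genes against 4254, 4202 and 859. The called genes were then 889 higher and 862 lower, 1257 higher and 571 lower, and 97 higher and 34 lower. Of the members it called 3 in the second comparison, where TNFRSF10B and TNFRSF10D were lost, and 1 in the last. In the first comparison the calls of TNFRSF1A and TNFRSF21 were lost. Of the pathway genes it called 7 in the second comparison and 3 in the last. This choice changes test, scale and unit together, and the part of each was not tested. Summing TNFRSF6B with RTEL1-TNFRSF6B gave 0.69, -0.82 and -0.13 for TNFRSF6B, since counts of the RTEL1 exons are added, and the last value was then not called. TNFRSF9 ranged from 1.89 to 6.84 in the first comparison and from 0.78 to 5.31 in the last over the alternatives. Leaving out 1 library gave 3317 to 3794, 3307 to 3618 and 459 to 818 genes, 4 to 7, 4 to 6 and 6 to 7 members, and 12 to 15, 11 to 13 and 6 to 8 pathway genes. The last count of genes fell to 459 without plvx neo replicate 3, to 501 without STBD1 W203C replicate 1 and to 543 without STBD1 W203C replicate 2. TNFRSF6B then lay at 1.26 to 1.31, -1.74 to -1.56 and -0.46 to -0.27. LTBR lost its call between the constructs without STBD1 WT replicate 1 or 3 or STBD1 W203C replicate 3, and with the replicate block. FAS gained a call without STBD1 WT replicate 1 in the first comparison and without STBD1 W203C replicate 1 in the second. Same-numbered libraries shared next to no deviation (mean r across genes 0.0139, from -0.0124 to 0.0677), which gives no sign that the numbers pair the samples. The mean for other pairs, -0.00694, is tied to this value by centring within groups and is no separate reference. With the replicate block 4400, 3662 and 1003 genes were called, against 4254, 4202 and 859 without it. The values that answer a comparison are the counts called and the log2 fold changes of TNFRSF6B. A count moved where it changed more than 1.5-fold. A log2 fold change moved where it shifted by 1 pooled within-group SD of log2 CPM or more. Of these values, 143 stayed within the limits and 13 moved past them. Of the log2 fold changes of the other members, 312 stayed and 12 moved. No called value changed sign. Low counts limit TNFRSF9 in plvx neo, where 3 libraries held 8 counts together.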
